A study of Drosophila melanogaster with 8 samples.

Results

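Heat shock proteins, their J-domain partners and the stress peptides of the Turandot family form a module of 35 genes in the testis of Drosophila melanogaster. Members were all rows of the count table whose symbol begins with Hsp, Hsc or DnaJ, or with Tot followed by A, B, C, F, M, X or Z, which gave 35 of 22887 features. By role they are 7 inducible Hsp70 genes (6 Hsp70 copies and Hsp68), 6 constitutive Hsc70 genes, 6 small heat shock proteins, 4 Hsp60 chaperonins, 1 Hsp90 gene (Hsp83), 4 J-domain genes and 7 Turandots. Symbols matched the current annotation for 34 members, and Hsc70Cb matched through an older symbol of the gene now called Hsp110.

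Chaperones bind unfolded proteins, and some families, such as Hsp70, use ATP to help them fold. Heat shock factor, Hsf, turns the inducible Hsp70 and small heat shock genes on within minutes of heat or other protein damage, whereas the Hsc70 cognates, Hsp60 and Hsp83 are made in unstressed cells, and several of them have forms expressed mainly in the testis. Turandot genes encode small secreted peptides that adult flies release, mainly from the fat body, after heat, injury or infection, under control of the JAK-STAT, Imd and Mekk1 pathways.

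Total RNA from testes of 5-day-old flies was sequenced in 4 groups of 2 libraries each: a Tailor mutant, a Dis3L2 mutant, a mutant of both genes (the double mutant) and w1118, a white-eyed laboratory strain that serves as the control. Tailor adds uridines to RNA 3′ ends and Dis3L2 is an exonuclease that prefers such ends, so the comparisons ask which testis RNAs depend on either enzyme or on both. Each group's libraries came from independent dissections. The sources used here name no alleles, no parent strains of the mutants and no number of flies per dissection. Per the labels' protocols, RNA was extracted with Trizol, 650 ng entered the TruSeq total RNA preparation with 8 rather than 15 PCR cycles, and pairs of 50 nt reads came from 2 HiSeq2500 flow cells; the labels do not say which library ran on which of them.

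Total counts per library ranged from 9781275 (double mutant replicate 2) to 30059737 (double mutant replicate 1), and ribosomal RNA took 1.43% to 24.6% of them. Tailor averaged 19.7 CPM (counts scaled to library size) in the Tailor mutant, 96.2 CPM in the Dis3L2 mutant, 21.9 CPM in the double mutant and 84.8 CPM in w1118. Dis3l2, listed as CG16940, averaged 91.7, 10.3, 30.7 and 115.8 CPM in the same groups. All 12 germline markers were counted in every library, and their summed level lay between 1899.6 and 2998 CPM over the libraries. RNA of neighbouring tissues was present as well: 10 accessory gland markers summed to 39284 and 9119 CPM in the Tailor mutant, 2963 and 3996 CPM in the Dis3L2 mutant, 13678 and 10340.4 CPM in the double mutant and 11884 and 11161 CPM in w1118. The 8 muscle markers summed to 412 to 856 CPM over the libraries and the 9 midgut markers to 13.0 to 559 CPM, highest in w1118 replicate 2. In bulk tissue, fewer cells of a type and less RNA per cell cannot be told apart. Below, values of a group are given in the order replicate 1, replicate 2, and p-values measure the spread between these libraries.

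The members took 0.769% to 1.17% of all counts. Their summed level was 9676 and 9068 CPM in the Tailor mutant, 9589 and 9664 CPM in the Dis3L2 mutant, 10554 and 11847 CPM in the double mutant and 9726 and 9315 CPM in w1118, so the double mutant libraries were the highest pair. Constitutive Hsc70 genes made up 37.1% to 42.9% of that sum in each library, the Hsp60 chaperonins 17.2% to 25.2% and Hsp83 17.2% to 23.8%. Inducible Hsp70 genes held 2.74% to 12.9% and the Turandots 0.00974% to 0.0994%.

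Per kilobase of exon, which allows genes to be compared, Hsp83 was the most abundant member with a mean of 699.9 CPM per kb over the 8 libraries, followed by Hsc70-4 with 595.4 and Hsp60C with 479.6. Hsp60B had 310.9, Hsc70-3 258.4 and Hsc70-2 245.7 CPM per kb, and next came the small heat shock gene Hsp26 with 182.2. Hsp83 and Hsc70-4 overlapped over the libraries (564 to 807 and 453 to 693 CPM per kb). The lowest tested members were the Turandots TotM with 3.03, TotA with 2.10 and TotB with 0.996 CPM per kb.

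Several members stand in clusters of copies. On the dm6 genome build, Hsp70Aa and Hsp70Ab form an inverted pair at 3R:11954163-11960909, and Hsp70Ba, Hsp70Bbb, Hsp70Bb and Hsp70Bc lie at 3R:12465453-12511461, a span of 46009 bases. All 6 small heat shock genes lie within 14184 bases at 3L:9371511-9385694. TotA, TotC, TotB and TotZ share 7328 bases at 3R:20871036-20878363, with TotX nearby at 3R:20904917-20905518, while TotM (2L:5329857-5330464) and TotF (2L:19911815-19912377) lie alone. The Hsp70 copies are near identical, so how reads were divided among them is uncertain and their sum is given first.

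Of the 35 members, 29 passed the filter on low counts, which asked for at least 0.477 CPM in 2 libraries, and 6 did not. Hsp22, DnaJ-60 and TotZ were listed at 0 in all 8 libraries. All exon bases of Hsp22 are shared on the same strand with CG4456, which was counted at 17.6 to 32.8 CPM, and those of DnaJ-60 with CG42568, itself at 0, so whether RNA of either gene was present is uncertain. TotZ overlaps no other annotated gene. TotC, TotX and TotF had 24, 17 and 5 counts in all. Opposite-strand genes cover 75.9% of the exon bases of Hsp67Ba and 22.8% of those of DnaJ-H, and their counts are uncertain to that extent.

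The inducible Hsp70 copies, the classic heat shock genes, varied widely between libraries of the same group, except in the Dis3L2 mutant. Their summed level was 894 and 450.4 CPM in the Tailor mutant, 158 and 156 CPM in the Dis3L2 mutant, 154 and 601 CPM in the double mutant and 377 and 128 CPM in w1118. Tailor mutant replicate 1 and double mutant replicate 2 were the highest libraries. The Dis3L2 mutant libraries were nearly equal, the double mutant libraries differed 3.89-fold (replicate 2 over 1), the w1118 libraries 2.94-fold and the Tailor mutant libraries 1.98-fold (replicate 1 over 2). Both Tailor mutant libraries lay above both w1118 libraries, and the double mutant and w1118 libraries overlapped.

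Each copy kept that order among the highest 4 libraries: Tailor mutant replicate 1, double mutant replicate 2, Tailor mutant replicate 2, w1118 replicate 1. Hsp70Aa had 224 and 116 CPM in the Tailor mutant, 49.5 and 48.5 CPM in the Dis3L2 mutant, 45.2 and 174 CPM in the double mutant and 101 and 31.7 in w1118. For Hsp70Ab the values were 238 and 128 CPM in the Tailor mutant, 50.5 and 52.0 CPM in the Dis3L2 mutant, 47.9 and 190.1 CPM in the double mutant and 108 and 35.1 in w1118. The Hsp70A pair supplied 51.8% to 64.3% of the summed reads in every library.

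Hsp70Ba had 91.7 and 42.8 CPM in the Tailor mutant, 14.6 and 13.3 CPM in the Dis3L2 mutant, 12.04 and 47.79 CPM in the double mutant and 33.3 and 12.4 in w1118. Hsp70Bb, the highest of the Hsp70B copies, had 153 and 74.8 CPM in the Tailor mutant, 22.4 and 20.5 CPM in the Dis3L2 mutant, 24.04 and 80.62 CPM in the double mutant and 58.4 and 22.4 in w1118. Like the 2 copies that follow, it was lower in both Dis3L2 mutant libraries than in either w1118 library, though by a narrow margin in w1118 replicate 2. Hsp70Bbb had 93.9 and 44.7 CPM in the Tailor mutant, 10.3 and 10.8 CPM in the Dis3L2 mutant, 12.7 and 53.1 CPM in the double mutant and 40.8 and 13.5 in w1118. Hsp70Bc had 92.1 and 44.4 CPM in the Tailor mutant, 10.9 and 11.3 CPM in the Dis3L2 mutant, 12.5 and 55.6 CPM in the double mutant and 35.3 and 12.9 in w1118.

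None of the copies passed the edgeR quasi-likelihood test (Benjamini-Hochberg adjusted p of 0.05 or less, a call in what follows) in any of the 7 comparisons. Log2 fold changes of the 6 copies lay between 1.35 and 1.56 in the Tailor mutant against w1118 (adjusted p = 0.341 to 0.455), between -1.36 and -0.44 in the Dis3L2 mutant (0.319 to 0.77) and between 0.25 and 0.73 in the double mutant (0.509 to 0.838). The widest gap was between the single mutants, 1.80 to 2.71 in the Tailor mutant over the Dis3L2 mutant (adjusted p = 0.0558 to 0.154). There DESeq2 called Hsp70Bb, Hsp70Bbb and Hsp70Bc (adjusted p = 0.0226, 0.02 and 0.0307), and edgeR called the same 3 without Tailor mutant replicate 2 (0.0317 to 0.0405, with Hsp70Ba at 0.0488) and without either double mutant library (0.0424 to 0.0495). With only the single mutants in the fit edgeR also called these 3 (0.0387 to 0.0414), and with no low-count filter it called them and Hsp70Ba (0.0134 to 0.028). Accessory gland RNA was also highest in Tailor mutant replicate 1 and lowest in the Dis3L2 mutant, but in the double mutant it was lower in replicate 2, where Hsp70 was 3.89-fold higher; its part in the Hsp70 levels was not tested.

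Hsp68, the inducible Hsp70 relative outside both clusters, had 359 and 158 CPM in the Tailor mutant, 104 and 127 CPM in the Dis3L2 mutant, 158 and 177 CPM in the double mutant and 235 and 161 CPM in w1118. The Dis3L2 mutant libraries were the lowest pair and lay below every other library. Its log2 fold change in the Dis3L2 mutant against w1118 was -0.77 ± 0.36 (SE; edgeR adjusted p = 0.246). That comparison was called without Tailor mutant replicate 1 or without replicate 2 (adjusted p = 0.0336 in either case) and when only the Dis3L2 mutant and w1118 libraries were fitted (0.0429). Between the single mutants its difference was 1.16 ± 0.37 (Tailor over Dis3L2; adjusted p = 0.0828 by edgeR and 0.00451 by DESeq2).

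**Figure D1:**
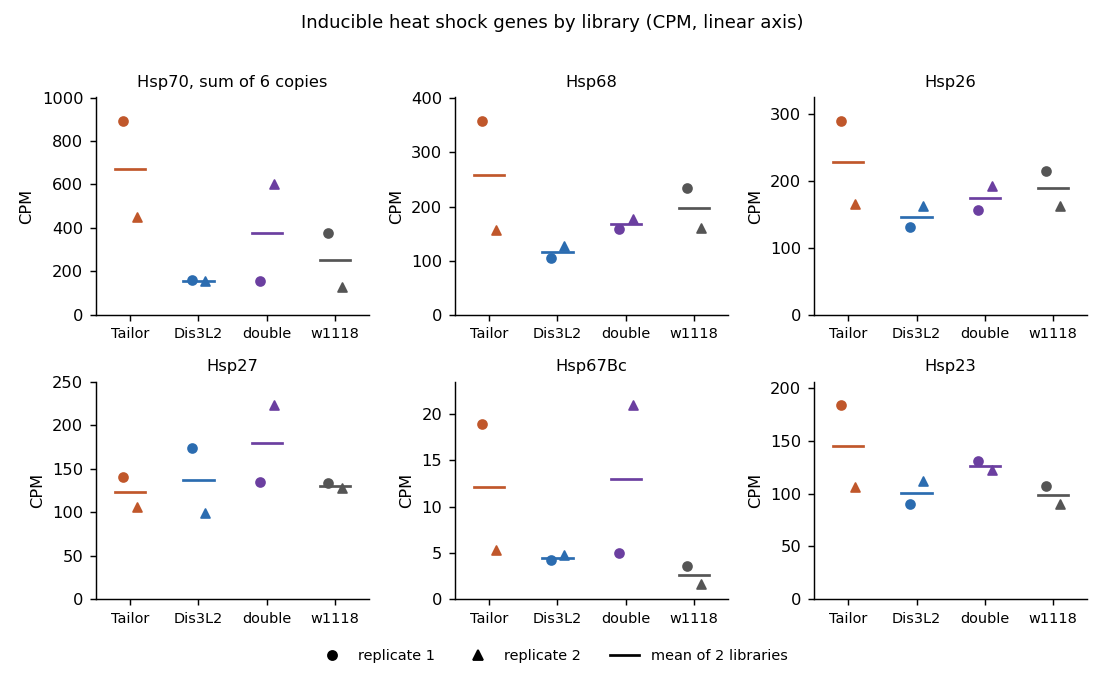
Level in CPM (linear vertical axes from 0) of the summed Hsp70 copies, Hsp68 and 4 small heat shock genes in the Tailor mutant, Dis3L2 mutant, double mutant and w1118. Circles are replicate 1, triangles replicate 2 and lines the mean of 2 libraries; the summed Hsp70 level was 894 CPM in Tailor mutant replicate 1 and 601 CPM in double mutant replicate 2, and 128 CPM in w1118 replicate 2.

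Among the small heat shock proteins, which hold unfolded proteins until Hsp70 can act on them, none was called in any comparison by edgeR. Hsp67Bc had 18.9 and 5.34 CPM in the Tailor mutant, 4.26 and 4.71 CPM in the Dis3L2 mutant, 5.01 and 21.0 CPM in the double mutant and 3.59 and 1.60 in w1118. The libraries with most Hsp67Bc were those with most Hsp70, Tailor mutant replicate 1 and double mutant replicate 2, and every mutant library lay above both w1118 libraries. Its log2 fold change was 2.23 ± 0.82 in the Tailor mutant (adjusted p = 0.269 by edgeR and 0.0231 by DESeq2) and 2.29 ± 0.83 in the double mutant (0.115 by edgeR and 0.0045 by DESeq2), both against w1118. Without Tailor mutant replicate 1 or 2, edgeR called the double mutant comparison as well (0.0474 and 0.047).

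The other small heat shock genes varied less. Hsp26 ranged from 131 CPM (Dis3L2 mutant replicate 1) to 289 CPM (Tailor mutant replicate 1), and Hsp23 was lowest and highest in the same libraries, with 89.7 and 184 CPM. Hsp27 lay between 99.2 CPM in Dis3L2 mutant replicate 2 and 224 CPM in double mutant replicate 2, and Hsp67Ba between 12.3 and 17.1 CPM.

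Over all 29 members tested, calls were few. The 2 libraries of a group differed most in the Tailor mutant. Over all features their median absolute log2 ratio, with 0.5 CPM added, was 0.322 there. It was 0.212 in the Dis3L2 mutant, 0.206 in the double mutant and 0.121 in w1118. The absence of a call in a Tailor mutant comparison therefore need not mean the absence of a change. In the Tailor mutant against w1118, edgeR called 0 members, against 2.00% of all 14246 features; 2 members (6.90%) had an unadjusted p under 0.05, beside 14.7% of all features. DESeq2 called 1 member, Hsp67Bc (3.45%, beside 3.52% of all features). The median log2 fold change of the members was 0.15, against 0.02 over all features. Levels did not overlap between the groups for 10 members that were higher in the mutant (background 21.0% of features) and 8 that were lower (background 23.2%). The higher ones were the 6 Hsp70 copies, Hsp67Bc and 3 Turandots. The division of reads among the 6 copies is uncertain, so they are not separate results and the number higher is not read as an excess. The lower ones were constitutive chaperones: all 4 Hsp60 genes, Hsc70-2, Hsc70-5, Hsc70Cb and Hsp83.

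In the Dis3L2 mutant against w1118, edgeR also called 0 members (background 9.22%), 3 (10.3%) had an unadjusted p under 0.05, beside 24.6% of all features, and DESeq2 called 2 (6.90%, beside 11.3%). The median log2 fold change was -0.09, against 0.00 over all features. The cytosolic J-domain protein DnaJ-1, the Hsp40 partner of Hsp70, came nearest among the chaperones with 0.55 ± 0.14 (adjusted p = 0.0556 by edgeR and 0.0221 by DESeq2). The other DESeq2 call was the Turandot TotM, which was lower in the mutant (-3.03, adjusted p = 0.0302 by DESeq2 and 0.142 by edgeR).

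The double mutant against w1118 gave 3 calls among the members, all higher, a share of 10.3% beside a background of 11.6% in either direction and 6.66% higher. They were DnaJ-1, DnaJ-H and Hsc70-1. A positive log2 fold change was found for 22 of 29 members and for 6529 of 14246 features. The 22 include every Hsp70 copy, and these are not separate results, so that share is not read as an excess. The median was 0.27, against -0.06 over all features. Levels did not overlap for 18 members (background 69.9%), of which 15 were higher (background 31.9%). Against the Tailor mutant the double mutant had 5 members higher and 1 lower, a share of 20.7% (background 14.7%, with 8.13% higher and 6.54% lower). Against the Dis3L2 mutant it had 2 higher (background 9.05%, with 4.77% higher), and the Tailor mutant against the Dis3L2 mutant also gave 2 higher (background 13.0%, with 6.93% higher). In the last of these, 15 members (51.7%) had an unadjusted p under 0.05, beside 28.2% of all features. Every Hsp70 copy was among those 15 (edgeR unadjusted p = 0.00796 to 0.0399). The division of reads among these copies is uncertain, so they are not separate results and the share is not read as an excess. These comparisons share libraries, so their calls are not independent of each other.

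**Figure D2:**
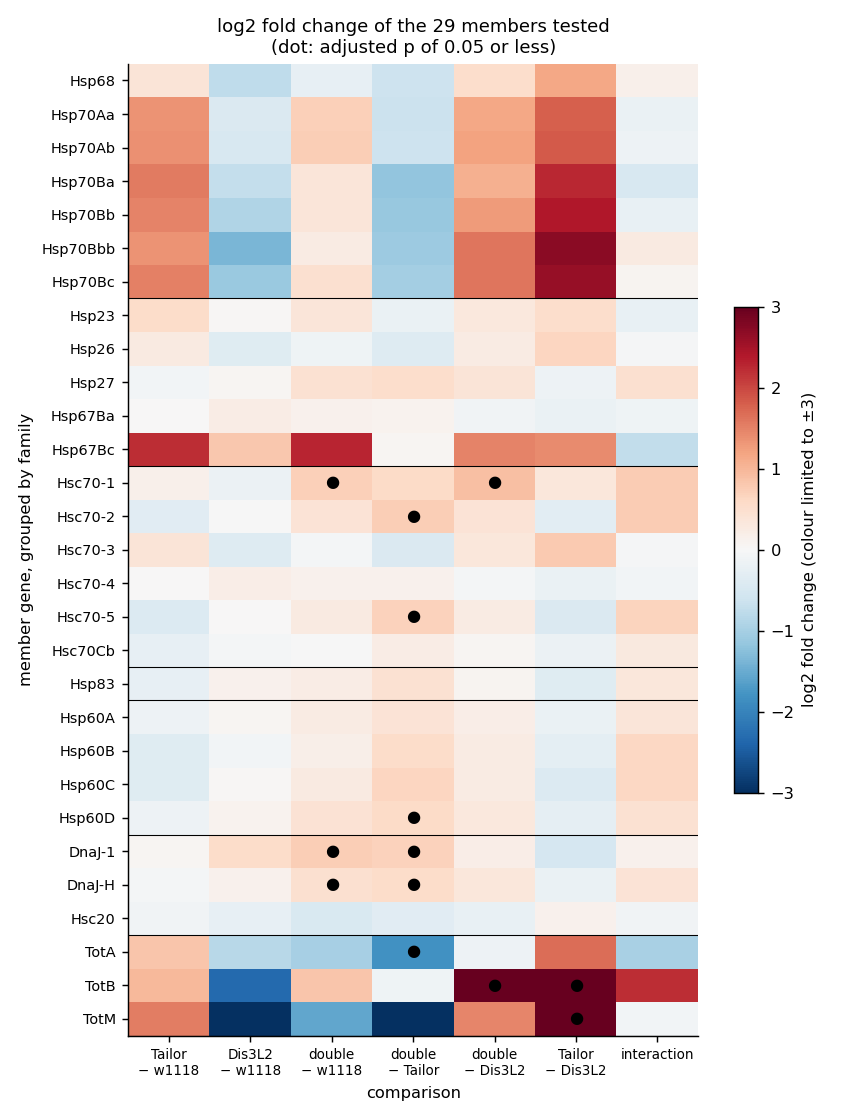
Log2 fold change (colour, limited to 3 in either direction) of the 29 members tested (rows, by family) in the 6 comparisons of groups and the interaction (columns). A dot marks an edgeR adjusted p of 0.05 or less; the columns against w1118 of the Tailor mutant and of the Dis3L2 mutant hold 0 dots, and the double mutant column against w1118 holds 3.

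DnaJ-1 (FBgn0263106, 3L:5750029-5752189, minus strand) had 319 and 258 CPM in the Tailor mutant, 395 and 417 CPM in the Dis3L2 mutant, 456 and 474 CPM in the double mutant and 292 and 262 CPM in w1118. The double mutant libraries were the highest, the Dis3L2 mutant libraries came next, and the Tailor mutant libraries lay on either side of the w1118 ones. It rose in the double mutant by a log2 fold change of 0.75 ± 0.14 against w1118 (edgeR adjusted p = 0.0204) and 0.69 ± 0.14 against the Tailor mutant (0.0233). The call against w1118 was lost without any 1 of the double mutant or w1118 libraries (adjusted p = 0.0861 to 0.153). The call against the Tailor mutant was lost without the same 4 (0.0541 to 0.124).

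DnaJ-H, another Hsp40 (FBgn0032474, 2L:13163209-13166072, minus strand), had 322 and 285 CPM in the Tailor mutant, 340.1 and 359.8 CPM in the Dis3L2 mutant, 449.8 and 440.9 CPM in the double mutant and 313 and 323 CPM in w1118. Both double mutant libraries stood above all 6 others. The log2 fold change was 0.49 ± 0.12 against w1118 (adjusted p = 0.0419) and 0.56 ± 0.12 against the Tailor mutant (0.0257). Without any 1 of the Dis3L2 mutant, double mutant or w1118 libraries the call against w1118 was lost (0.058 to 0.23), and without any 1 of the double mutant or w1118 libraries so was the call against the Tailor mutant (0.0658 to 0.115). Hsc20, the J-domain protein of iron-sulfur cluster assembly, was rare, with 5.11 and 4.26 CPM in the Tailor mutant, 5.46 and 3.17 CPM in the Dis3L2 mutant, 3.56 and 3.84 CPM in the double mutant and 4.99 and 5.09 in w1118. No comparison of it was called (adjusted p = 0.332 to 0.91).

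Of the Hsc70 genes, which encode the constitutive Hsp70 relatives, 3 were called. Hsc70-1 (FBgn0001216, 3L:13974061-13977761, plus strand) had 193 and 157 CPM in the Tailor mutant, 154 and 124 CPM in the Dis3L2 mutant, 242 and 279 CPM in the double mutant and 151 and 164 CPM in w1118. The double mutant libraries lay above all others. It rose in the double mutant by 0.72 ± 0.16 on the log2 scale against w1118 (edgeR adjusted p = 0.0338) and by 0.91 ± 0.17 against the Dis3L2 mutant (0.0203). Leaving out any 1 double mutant or w1118 library ended the call against w1118 (0.0893 to 0.215). Leaving out any 1 Dis3L2 mutant, double mutant or w1118 library ended the call against the Dis3L2 mutant (0.0524 to 0.125).

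Hsc70-2, a cytosolic cognate (FBgn0001217, 3R:13044759-13047388, plus strand), had 363 and 461 CPM in the Tailor mutant, 510.3 and 522 CPM in the Dis3L2 mutant, 691 and 686 CPM in the double mutant and 515 and 526 CPM in w1118. Hsc70-5, the Hsp70 of the mitochondrial matrix (FBgn0001220, 2R:14252598-14256192, minus strand), had 301 and 311 CPM in the Tailor mutant, 440.4 and 389.6 CPM in the Dis3L2 mutant, 465 and 519 CPM in the double mutant and 403 and 416 CPM in w1118. For both genes the Tailor mutant libraries were the lowest pair and the double mutant libraries the highest. Against the Tailor mutant, the double mutant had 0.74 ± 0.15 more Hsc70-2 (adjusted p = 0.0202) and 0.69 ± 0.13 more Hsc70-5 (0.017) on the log2 scale. Hsp60D, a chaperonin gene (FBgn0032525, 2L:13447538-13449497, minus strand), likewise had its lowest libraries in the Tailor mutant and its highest in the double mutant, with 221 and 198 CPM in the Tailor mutant, 242 and 264 CPM in the Dis3L2 mutant, 309 and 318 CPM in the double mutant and 235 and 233 CPM in w1118. Its double mutant level exceeded that of the Tailor mutant by 0.58 ± 0.12 on the log2 scale (adjusted p = 0.0208). The Hsc70-2, Hsc70-5 and Hsp60D calls were lost without any 1 of the double mutant or w1118 libraries (0.0537 to 0.113). A fit of the double and Tailor mutant libraries alone called none of the 6 members called in that comparison (0.106 to 0.145), and over all features that fit made 20 calls against 2090; the members' log2 fold changes in it lay between -1.83 (TotA) and 0.74 (Hsc70-2).

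**Figure D3:**
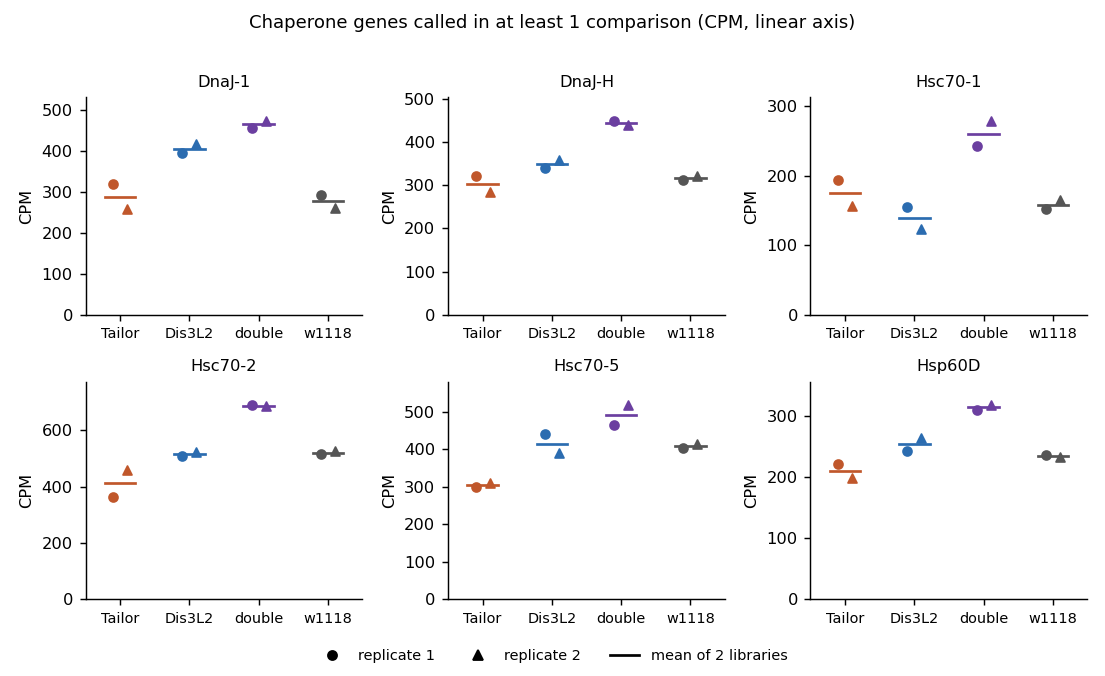
Level in CPM (linear vertical axes from 0) of the 6 chaperone genes called in at least 1 comparison, by group, with circles for replicate 1, triangles for replicate 2 and lines for the mean of 2 libraries. In each panel both double mutant libraries lie above the other 6, for example at 691 and 686 CPM for Hsc70-2 beside 515 and 526 CPM in w1118.

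The most abundant members were not called by edgeR in any comparison. Hsp83, the cytosolic Hsp90 that matures kinases and receptors, had 1669 and 1754 CPM in the Tailor mutant, 2102 and 2301 CPM in the Dis3L2 mutant, 2389 and 2310 CPM in the double mutant and 2018 and 2032 CPM in w1118. The Tailor mutant libraries were the lowest and the double mutant libraries the highest, and no groups overlapped. DESeq2 called Hsp83 higher in the double mutant than in the Tailor mutant (0.48, adjusted p = 0.00456). Hsc70-4, the main cytosolic cognate, had 1229 and 1822 CPM in the Tailor mutant, 1619 and 1883 CPM in the Dis3L2 mutant, 1655 and 1683 CPM in the double mutant and 1519 and 1527 CPM in w1118. Its Tailor mutant libraries held the lowest level and the highest but for Dis3L2 mutant replicate 2.

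Hsc70-3, the BiP of the endoplasmic reticulum, had 1483 and 919 CPM in the Tailor mutant, 690.1 and 713 CPM in the Dis3L2 mutant, 789.6 and 977 CPM in the double mutant and 934 and 913 CPM in w1118. Tailor mutant replicate 1 stood apart from the rest and the Dis3L2 mutant libraries were the lowest, with a log2 fold change of 0.78 ± 0.23 between the Tailor and Dis3L2 mutants (adjusted p = 0.0717 by edgeR and 0.00853 by DESeq2). Tailor mutant replicate 1 also had the most accessory gland RNA and the Dis3L2 mutant libraries the least, and the part of that RNA in the Hsc70-3 level was not tested.

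Hsp60C and Hsp60B, chaperonin genes with known roles in fly spermatogenesis, had like patterns. Hsp60C had 749.7 and 855 CPM in the Tailor mutant, 1203 and 913 CPM in the Dis3L2 mutant, 1117 and 1376 CPM in the double mutant and 1036 and 1045 CPM in w1118. Hsp60B had 500.4 and 602 CPM in the Tailor mutant, 746 and 599 CPM in the Dis3L2 mutant, 741 and 862 CPM in the double mutant and 708 and 720.3 CPM in w1118. In both genes the double mutant libraries lay above those of the Tailor mutant and of w1118, and the log2 fold changes against the Tailor mutant were 0.64 ± 0.19 and 0.54 ± 0.17 (adjusted p = 0.0629 and 0.0743 by edgeR, 0.00762 and 0.0178 by DESeq2). The general mitochondrial chaperonin Hsp60A lay between 198 and 309 CPM, and Hsc70Cb, the exchange factor of the Hsp110 class, between 212 and 268 CPM.

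The Tailor mutant against w1118 was next set beside the double mutant against the Dis3L2 mutant. Dis3l2 RNA was itself higher in the double mutant than in the Dis3L2 mutant (log2 fold change 1.58 ± 0.11, edgeR adjusted p = 0.000753). The second comparison may therefore not isolate the Tailor mutation. For 5 members, chosen after their values were seen (Hsc70-2, Hsc70-5, Hsc70Cb, Hsp60D and Hsp83), both Tailor mutant libraries lay below both w1118 libraries, and both double mutant libraries above both Dis3L2 mutant libraries; these are 17.2% of the members tested, beside 7.94% of all features. The interaction is the log2 change of the double mutant minus both single mutant changes, each against w1118. The choice of these 5 genes fixed its sign as positive, so their values describe the choice and do not test it. It was 0.30 to 0.75 for them (edgeR adjusted p = 0.0868 to 0.382). DESeq2 called it for Hsc70-2 (0.79, adjusted p = 0.0138) and Hsc70-5 (0.70, 0.0279). Over all members, edgeR called 0 interactions (background 4.08%), 7 (24.1%) had an unadjusted p under 0.05, beside 22.3% of all features, and DESeq2 called those 2 (6.90%, beside 7.62%). Germline markers summed to 2998 and 2064 CPM in the Tailor mutant, 1899.6 and 2130 CPM in the Dis3L2 mutant, 2711 and 2323 CPM in the double mutant and 2121 and 2247 CPM in w1118, and the part of germline content in the chaperone levels was not tested.

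The Turandots were rare everywhere, and their summed level was 9.62 and 6.75 CPM in the Tailor mutant, 1.20 and 0.942 CPM in the Dis3L2 mutant, 2.02 and 1.77 CPM in the double mutant and 3.39 and 3.69 in w1118. No groups overlapped, with the Tailor mutant highest and the Dis3L2 mutant lowest. TotA had 1.40 and 3.09 CPM in the Tailor mutant, 0.732 and 0.685 CPM in the Dis3L2 mutant, 0.578 and 0.727 CPM in the double mutant and 1.16 and 1.36 in w1118. TotM had 7.06 and 2.01 CPM in the Tailor mutant, 0.266 and 0.128 CPM in the Dis3L2 mutant, 0.835 and 0 CPM in the double mutant and 1.45 and 1.64 in w1118. In both genes every Tailor mutant library was above every w1118 library, and every Dis3L2 and double mutant library below.

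TotB departed from that order in the double mutant. It had 0.701 and 0.924 CPM in the Tailor mutant, 0.0666 and 0.0856 CPM in the Dis3L2 mutant, 0.546 and 1.04 CPM in the double mutant and 0.388 and 0.441 in w1118. TotC had 0.351 and 0.402 CPM in the Tailor mutant, 0.0666 and 0 CPM in the Dis3L2 mutant, 0 and 0 CPM in the double mutant and 0.145 and 0.120 in w1118. The adjacent genes TotB and TotC were thus alike in the Tailor mutant, the Dis3L2 mutant and w1118 in their order of levels, whereas the double mutant held the highest single TotB level and no TotC read.

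In counts over both libraries of a group, TotA had 105 reads in the Tailor mutant, 27 reads in the Dis3L2 mutant, 25 reads in the double mutant and 58 reads in w1118. TotM had 191, 7, 26 and 71, TotB 37, 3, 27 and 19 and TotC 17, 1, 0 and 6 in the same groups. TotX had 9, 2, 0 and 6 counts and TotF 1, 0, 2 and 2, too few for either to be tested. TotX stood at 0.0501 and 0.321 CPM in the Tailor mutant, 0.0666 and 0.0428 CPM in the Dis3L2 mutant, 0 and 0 CPM in the double mutant and 0.194 and 0.0802 in w1118. TotF stood at 0.0501 and 0 CPM in the Tailor mutant, 0 and 0 CPM in the Dis3L2 mutant, 0.0642 and 0 CPM in the double mutant and 0.0485 and 0.0401 in w1118.

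TotB was called higher in the Tailor mutant than in the Dis3L2 mutant (log2 fold change 3.30 ± 0.62, edgeR adjusted p = 0.0162) and higher in the double mutant than in the Dis3L2 mutant (3.17 ± 0.63, 0.0263). With only 3 counts in the Dis3L2 mutant, the ratios of scaled counts were 10.6 (95% interval 3.34 to 53.5) and 8.47 (2.61 to 43.6), and these intervals cover counting error only. The Tailor mutant call was lost without either Dis3L2 mutant library (adjusted p = 0.11 and 0.112) and in a fit of those 2 groups alone (0.0566). The double mutant call was lost without any 1 Dis3L2 mutant, double mutant or w1118 library (0.0584 to 0.153) and by DESeq2 (0.0553).

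TotM was called higher in the Tailor mutant than in the Dis3L2 mutant (4.55 ± 1.09, adjusted p = 0.0362), and the ratio was 23.3 (11.1 to 58.9). That call was lost without Tailor mutant replicate 1 or any 1 Dis3L2 mutant or w1118 library (0.0596 to 0.201) and in a fit of those 2 groups alone (0.0572). DESeq2 kept it (adjusted p = 0.000115). DESeq2 also called TotM lower in the double mutant than in the Tailor mutant (-3.22, adjusted p = 0.00523, against 0.0686 by edgeR). TotA fell in the double mutant against the Tailor mutant (-1.82 ± 0.47, edgeR adjusted p = 0.0429), with a ratio of 0.262 (0.162 to 0.408). That call was lost without any 1 library other than Tailor mutant replicate 1 (0.0767 to 0.183) and by DESeq2 (0.0631). With 3 counts put over the double mutant group as the floor, TotC was 5.15-fold lower there than in the Tailor mutant and 1.79-fold lower than in w1118. The 17 reads in the Tailor mutant and 6 in w1118 were taken as exact, so these folds are not lower limits. Neither Dis3L2 mutant library of TotB or TotM reached the filter's minimum, so these genes were tested only because other groups were higher, and their calls are descriptions of that difference.

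**Figure D4:**
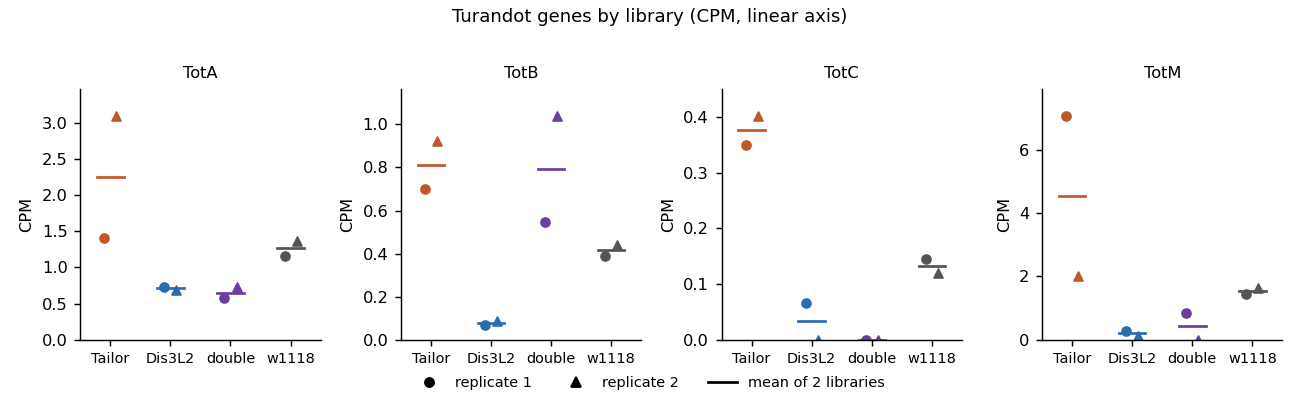
Level in CPM (linear vertical axes from 0) of TotA, TotB, TotC and TotM by group, with circles for replicate 1, triangles for replicate 2 and lines for the mean of 2 libraries. TotM reached 7.06 CPM in Tailor mutant replicate 1, and TotB stood at 0.546 and 1.04 CPM in the double mutant beside 0.0666 and 0.0856 CPM in the Dis3L2 mutant.

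RNA of other tissues also differed between the libraries. The 10 fat body markers summed to 427 and 584 CPM in the Tailor mutant, 412 and 350.5 CPM in the Dis3L2 mutant, 312 and 339.8 CPM in the double mutant and 577.5 and 492 in w1118, with Fbp1 at 0 in w1118 replicate 1 and Fbp2 at 0 in Dis3L2 mutant replicate 1. The markers did not share 1 pattern. The lipoprotein gene apolpp had 147 and 202 CPM in the Tailor mutant, 58.2 and 65.0 CPM in the Dis3L2 mutant, 72.5 and 51.1 CPM in the double mutant and 204 and 164 in w1118. Fbp1 had 10.4 and 0.0804 CPM in the Tailor mutant, 0.0666 and 0.0856 CPM in the Dis3L2 mutant, 10.8 and 18.0 CPM in the double mutant and 0 and 0.120 in w1118, high where apolpp was low in the double mutant. Both genes were picked after their values were seen. In the Tailor mutant against the Dis3L2 mutant, edgeR called all 10 accessory gland markers higher. It also called 4 of 8 muscle markers and 2 of 10 fat body markers higher, beside 6.93% of all features. It called 3 of the 6 blood cell markers tested and 2 of 7 cyst and hub markers lower, beside 858 of 14246 features. The part of these tissues in the Turandot levels was not tested.

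Among 19 genes of the JAK-STAT, Imd and Mekk1 pathways, chosen as upstream or parallel to the Turandots, edgeR called 3 higher in the Dis3L2 mutant than in w1118 (15.8%, beside 4.70% of all features called higher there). The list was chosen with earlier results of these data known, and upd3 passed the filter only through the Dis3L2 mutant. The share is therefore not read as an excess. The cytokine upd3, a JAK-STAT ligand, had 0.150 and 0.241 CPM in the Tailor mutant, 3.86 and 2.70 CPM in the Dis3L2 mutant, 0.482 and 0 CPM in the double mutant and 0.242 and 0.201 in w1118. Diedel, a small secreted protein that dampens Imd signalling, had 0.250 and 0.121 CPM in the Tailor mutant, 6.13 and 4.96 CPM in the Dis3L2 mutant, 0.514 and 0.312 CPM in the double mutant and 0.485 and 0.0802 in w1118. Both were high in the Dis3L2 mutant libraries, and the other 6 libraries reached at most 0.482 CPM of upd3 and 0.514 CPM of Diedel. Socs36E, a feedback inhibitor induced by JAK-STAT, had 9.32 and 13.9 CPM in the Tailor mutant, 22.4 and 20.2 CPM in the Dis3L2 mutant, 20.3 and 18.7 CPM in the double mutant and 7.71 and 8.58 in w1118.

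In the Dis3L2 mutant against w1118, upd3 rose by 3.85 ± 0.79 on the log2 scale (adjusted p = 0.0257), Diedel by 4.32 ± 0.68 (0.0103) and Socs36E by 1.39 ± 0.21 (0.00962). The upd3 and Socs36E calls were lost without any 1 Dis3L2 mutant or w1118 library (0.0944 to 0.197 and 0.0552 to 0.0977), and the Diedel call without either Dis3L2 mutant library (0.0588 and 0.0715). Outside the Dis3L2 mutant, upd3 reached the filter's minimum of 0.477 CPM only in double mutant replicate 1, so it was tested only because the Dis3L2 mutant was higher. In the double mutant against w1118, Socs36E rose by 1.26 ± 0.21 (0.0138) and Su(var)2-10, the PIAS of flies, by 0.62 ± 0.12 (0.0198); both calls were lost without any 1 double mutant or w1118 library (0.0687 to 0.159). Against the Dis3L2 mutant, the double mutant was lower in upd3 (-3.35 ± 0.76, 0.0378), Diedel (-3.63 ± 0.66, 0.0198), vir-1, a JAK-STAT target (-1.996 ± 0.29, 0.0101), and Rel, the Imd transcription factor (-1.20 ± 0.27, 0.0372), and higher in Su(var)2-10 (0.75 ± 0.12, 0.0126). The calls of the 4 lower genes were lost without either Dis3L2 mutant library or without double mutant replicate 2 (0.0598 to 0.196), Diedel and Rel also without double mutant replicate 1, and upd3 and Rel also without either w1118 library. The Su(var)2-10 call was lost without any 1 Dis3L2 mutant or double mutant library (0.0619 to 0.0819).

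The receptor dome, the kinase hop, Stat92E, the ligands upd1 and upd2 and the kinase Mekk1 were called in none of the 7 comparisons. Blood cell markers, 7 genes, summed to 154 and 239.9 CPM in the Tailor mutant, 450.6 and 445 CPM in the Dis3L2 mutant, 339 and 241 CPM in the double mutant and 224 and 219 in w1118, with He at 0 in Tailor mutant replicate 1. The 7 cyst and hub markers, among them upd1 and Socs36E, summed to 112 and 128, 192 and 182, 152 and 145, and 119 and 117 CPM in the same groups. The part of these cells in the levels of upd3, Diedel, vir-1 and Socs36E was not tested.

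**Figure D5:**
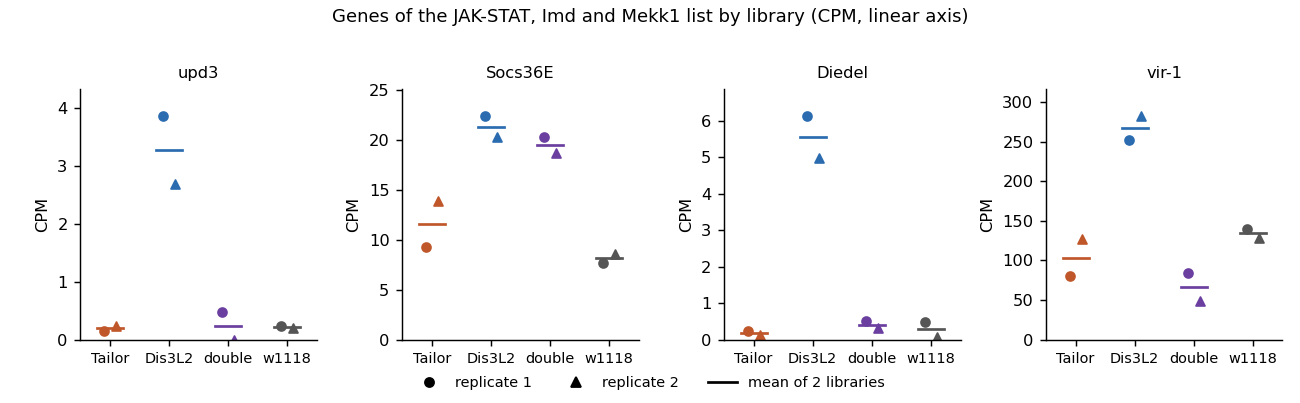
Level in CPM (linear vertical axes from 0) of upd3, Socs36E, Diedel and vir-1 by group, with circles for replicate 1, triangles for replicate 2 and lines for the mean of 2 libraries. For upd3 the Dis3L2 mutant libraries lie at 3.86 and 2.70 CPM and the other 6 at 0.482 CPM or less, whereas Socs36E stands at 22.4 and 20.2 CPM in the Dis3L2 mutant and 20.3 and 18.7 CPM in the double mutant.

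On the side of the heat shock response, Hsf itself had 38.6 and 47.9 CPM in the Tailor mutant, 44.3 and 41.2 CPM in the Dis3L2 mutant, 44.4 and 39.8 CPM in the double mutant and 43.3 and 42.2 in w1118. Tailor mutant replicate 1 and double mutant replicate 2, the libraries highest in Hsp70, had the least Hsf RNA, and Tailor mutant replicate 2, next in Hsp70, had the most. The activity of the Hsf protein was not measured, and the part of Hsf in the Hsp70 levels was not tested. None of the 7 heat shock regulators tested was called in any comparison by edgeR. Between 0 and 3 per comparison had an unadjusted p under 0.05, beside 14.7% to 33.2% of all features. DESeq2 called 0 or 1, beside 3.52% to 18.2%. The heat shock RNA Hsromega, which accumulates on heat, had 736 and 863 CPM in the Tailor mutant, 674 and 365 CPM in the Dis3L2 mutant, 508 and 487 CPM in the double mutant and 631 and 617 in w1118. It was highest in the Tailor mutant libraries, while double mutant replicate 2 had less than any library but Dis3L2 mutant replicate 2.

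Chaperones outside the symbol rule gave few calls against w1118. The 87 genes tested came from the cochaperone, J-domain, alpha-crystallin, CCT and prefoldin, and organelle chaperone lists. In the Tailor mutant edgeR called 0 of them, beside 2.00% of all features. An unadjusted p under 0.05 was found for 10 (11.5%, beside 14.7%), and DESeq2 called 1 (1.15%, beside 3.52%). In the Dis3L2 mutant edgeR called 3 higher and 3 lower (6.90%, beside 9.22% of all features). There 16 had an unadjusted p under 0.05 (18.4%, beside 24.6%) and DESeq2 called 7 (8.05%, beside 11.3%). In the double mutant edgeR called 5 higher and 2 lower (8.05%, beside 11.6%). There 27 had an unadjusted p under 0.05 (31%, beside 30.4%) and DESeq2 called 11 (12.6%, beside 14.9%). Of 16 cochaperones of Hsp70 and Hsp90, only HIP was called in the Dis3L2 mutant, with 68.3 and 65.5 CPM in the Tailor mutant, 143 and 128 CPM in the Dis3L2 mutant, 89.8 and 93.1 CPM in the double mutant and 70.4 and 66.2 in w1118 (log2 fold change against w1118 0.99 ± 0.11, adjusted p = 0.00358, or 0.0587 without w1118 replicate 2). HIP has a close paralog, HIP-R, and the division of reads between them is uncertain. Among 33 other J-domain genes, CG11035 and CG12020 rose in the Dis3L2 mutant (1.23 ± 0.20, adjusted p = 0.0121, and 0.66 ± 0.13, 0.0233) and also in the double mutant (1.06 ± 0.20, 0.02, and 0.78 ± 0.13, 0.0133), and CG43322 in the double mutant (0.72 ± 0.14, 0.0223). The double mutant calls of these 3 were lost without any 1 double mutant or w1118 library (0.0606 to 0.155). The Dis3L2 mutant calls were lost without Dis3L2 mutant replicate 2 or w1118 replicate 1, and that of CG12020 also without the other library of either group or double mutant replicate 1 (0.0518 to 0.159).

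Of the 3 alpha-crystallin genes tested outside the Hsp symbols, CG7409 had 16.6 and 12.3 CPM in the Tailor mutant, 6.26 and 5.78 CPM in the Dis3L2 mutant, 5.94 and 4.36 CPM in the double mutant and 17.4 and 13.6 in w1118. Against w1118 it fell in the Dis3L2 mutant, with a change of -1.37 ± 0.24 on the log2 scale (adjusted p = 0.0151). It also fell in the double mutant, with -1.57 ± 0.24 (0.0101). The Dis3L2 mutant call was lost without any 1 Dis3L2 mutant or w1118 library (0.0523 to 0.119), and the double mutant call without double mutant replicate 2 or w1118 replicate 1 (0.0782 to 0.0891).

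Of 21 chaperones and unfolded protein response genes of the endoplasmic reticulum and mitochondrion, CaBP1, a protein disulfide isomerase, and Calr, a calcium-binding lectin chaperone, fell in the Dis3L2 mutant (-0.95 ± 0.19, adjusted p = 0.0245, and -0.66 ± 0.15, 0.0383). Cnx99A, a calnexin, and Hrd3 rose in the double mutant (0.74 ± 0.13, 0.0152, and 0.60 ± 0.11, 0.0194), where CG11267 fell (-0.79 ± 0.16, 0.0222). The Dis3L2 mutant calls were lost without any 1 Dis3L2 mutant, double mutant or w1118 library (0.0509 to 0.26), and the double mutant calls without any 1 double mutant or w1118 library (0.058 to 0.192). None of the 14 CCT and prefoldin genes was called against w1118 by edgeR in any mutant. In the Tailor mutant, Dis3L2 mutant and double mutant, 0, 2 and 0 had an unadjusted p under 0.05, beside 14.7%, 24.6% and 30.4% of all features. DESeq2 called 0 in each, beside 3.52%, 11.3% and 14.9%.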

How the data were processed

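The authors deposited raw read counts, 1 whole number for each feature and library. Per the submitters' processing notes, Trimmomatic 0.36 trimmed the reads and HISAT2 aligned them to dm6. How reads were counted (tool, annotation, strand, reads with several positions) is not stated in those notes, which leaves counts of near-identical copies and overlapping genes uncertain.

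The test was edgeR 4.0.16 (R 4.3.3): TMM scaling, filterByExpr (minimum count of 10), and 1 quasi-likelihood model over the 8 libraries and 4 groups, with p-values adjusted by Benjamini-Hochberg across 14246 features. CPM used the scaled library sizes. The SE of a log2 fold change is its absolute value over the square root of F. Ratios of low counts carry exact 95% conditional binomial intervals, which cover counting error only, since reads carry no molecular identifiers. A group at 0 was given a floor of 3 counts, with the other group's counts taken as exact, so its fold carries no interval. The model was checked on simulated counts with the same spread for every gene and group, and with changes only in genes more abundant than the Turandots. That check does not cover groups of unequal spread or changes in genes as rare as the Turandots.

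Members and gene lists were chosen with earlier results of these data known. Values per library are given for members called in any comparison, the 10 with the highest mean CPM, every inducible Hsp70 and Turandot with a count, and the 2 largest log2 fold changes in either direction of each comparison; list genes are named where called or where they are known regulators. Alternatives were RLE and upper quartile scaling, DESeq2 1.42.0, no filter, a stricter filter, only the groups compared, a replicate block, ribosomal RNA left out, a 2-fold minimum, and each library left out. Positions are 1-based, from Ensembl's BDGP6 annotation, which uses dm6 coordinates.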

Additional observations from a re-analysis of the deposited data

How the results depend on the processing

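Counts of members called depended on the tool and the libraries. Against w1118, DESeq2 called 1 (Tailor mutant), 2 (Dis3L2 mutant) and 6 (double mutant). It called 10 in the double mutant against the Tailor mutant, 9 in the Tailor mutant against the Dis3L2 mutant and 2 for the interaction, where edgeR called 0, 0, 3, 6, 2 and 0. Over all features DESeq2 also made more calls, 502, 1604, 2129, 2598, 2127 and 1086 against 285, 1314, 1648, 2090, 1845 and 581 in the same order. With no low-count filter the double mutant against the Tailor mutant gave 10 and the Tailor mutant against the Dis3L2 mutant 9. Fitting only the groups compared gave, against w1118, 3 (Dis3L2 mutant) and 5 (double mutant), and 0 in the double mutant against the Tailor mutant, where calls over all features were 2531, 3786 and 20; the interaction uses all groups and has no such fit. With the replicate block, the double mutant had 1 against w1118 and 3 against the Tailor mutant (all features 991 and 1127). The block ended the edgeR calls of DnaJ-H (adjusted p = 0.0904) and Hsc70-1 (0.0616) against w1118. It also ended those of DnaJ-H (0.0619), Hsp60D (0.0528) and TotA (0.0681) against the Tailor mutant. These calls thus depend on a model without the replicate numbers. A stricter filter (minimum count of 50) left 1 in the double mutant against the Dis3L2 mutant and 0 in the Tailor mutant against it. Asking for a 2-fold change left 0 in the double mutant against w1118, 1 against the Tailor mutant and 1 against the Dis3L2 mutant. Leaving out each library in turn gave, against w1118, 0 to 3 (Tailor mutant), 0 to 2 (Dis3L2 mutant) and 0 to 6 (double mutant). It gave 0 to 10 in the double mutant against the Tailor mutant and 0 to 5 against the Dis3L2 mutant, 0 to 11 in the Tailor mutant against the Dis3L2 mutant and 0 to 2 for the interaction. The cause of these shifts was not tested.

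Over all alternatives run, values of the named members kept their side of the threshold in 2370 cases, gained a call in 85 and lost it in 75, and none changed direction with a call. Calls over all features also moved, from 45 to 1113 for the Tailor mutant and from 196 to 3537 for the double mutant against w1118 when a library was left out. Correlations of same-numbered libraries' deviations were between -0.303 and 0.3, so the replicate numbers do not pair the samples. Depth limits the Turandots most, since TotC, TotX and TotF had 24, 17 and 5 counts over the 8 libraries. With 2 libraries a group, a left-out library leaves a lone one that is assumed to vary like the other groups.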
